A study of Mus musculus with 24 samples.

Results

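The effect of vinyl chloride (VC) on the mouse liver transcriptome at the end of exposure was taken over both diets at once. The libraries were all those of the 12-week groups except 1 that held 607 counts. This left 11 of the 24 libraries of the series, 6 with VC and 5 without. The w12_CD+VC group (n = 3) had received the control diet (13% fat) and inhaled VC at a nominal 0.85 ± 0.1 ppm, in daily sessions of 6 hours, 5 per week, throughout 12 weeks. The w12_WD+VC group (n = 3) had received a Western diet (42% fat) and the same exposure. Their references breathed air on the control diet (w12_CD, n = 3) or on the Western diet (w12_WD, n = 2 of 3). All were male C57Bl/6J mice, fasted for 4 hours and killed directly after the last week of exposure, so the data describe the liver under exposure and not after recovery. Whether the libraries of a group came from different animals is not stated in the labels, and the p-values reflect only how far these libraries differ, which may be technical.

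VC is a gas used to make plastics. In the liver, CYP2E1 oxidises it to chloroethylene oxide, which rearranges to chloroacetaldehyde. Both react with glutathione and with DNA, where they leave etheno adducts, and aldehyde dehydrogenases such as ALDH2 clear the aldehyde. The acute-phase response is a separate programme in which hepatocytes raise secreted proteins such as serum amyloid A, haptoglobin and fibrinogen under cytokine signals, with C/EBPβ and STAT3 among its transcription factors.

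Sequencing was shallow. The 11 libraries held 135577 to 566870 counts and detected 6119 to 9902 genes each. A gene with 0 counts could still be present at up to 5.29 to 22.1 CPM (counts scaled to the library total), depending on the library; this limit covers counting error only. Total counts were 140926 to 566870 with VC and 135577 to 420735 with air, and none of 4 library measures passed as different by exposure in an exact permutation test within diets (two-sided, lowest adjusted p 0.95, smallest p the design allows 0.005). These measures included the share of counts in the most counted entries, Gm30505 and Gm10069 together, at 16.26% to 24.97% per library. They also included the share in entries that overlap an exon on the other strand, at 76.39% to 85.26%. Of the 24421 entries in the table, 5797 overlap in this way. Most counts thus lay in entries that may hold reads of another gene. Liver identity was clear from the hepatocyte list, of which 26 of 27 markers had counts. Of its 25 markers tested, 5 overlap in this way. Apoe, an apolipoprotein, stood at 6009 to 14644 CPM with VC and 6012 to 9331 CPM with air. Albumin (Alb) stood at 2842 to 4159 CPM with VC and 2078 to 6537 CPM with air.

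No gene passed the test for the pooled VC effect. Of 2761 genes tested with edgeR's quasi-likelihood test, 0 (0.0%) had a Benjamini-Hochberg adjusted p under 0.05, and the lowest was 0.126. At an unadjusted p under 0.05 there were 153 genes (5.54%), 76 with higher values under VC (2.75%) and 77 with lower values (2.79%). A share of 5.0%, or 138 genes, lies under that p by definition where nothing differs. DESeq2 called 3 genes (0.109%), which were Cebpb with higher values and Sycp3 and Tom1 with lower values, and limma-voom called Sycp3 alone. A p above the threshold does not show that values did not differ.

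The fold range that could be seen followed from the spread between libraries. For the median gene, the 95% interval of the pooled effect left 1 at a 1.59-fold difference in either direction (quartiles 1.42 to 1.81). To reach a p of 0.05 divided by the number of genes tested, the median gene needed 3.62-fold (quartiles 2.62 to 5.20). Abundance set much of this. The corresponding medians were 1.91-fold and 6.03-fold in the lowest of 4 equal classes of mean expression (17.6 to 37.5 CPM), and 1.33-fold and 2.19-fold in the highest (from 188.5 CPM). For 1601 genes (58.0%) the whole 95% interval lay within 2-fold in either direction, and for 2713 (98.3%) within 4-fold. In the lowest class 15.6% of genes were bounded within 2-fold, and in the highest 92.2%. The bounds hold for the 2761 genes tested out of 13787 with any count in these libraries. A difference under 3.62-fold in a single gene of median spread would therefore not reach that stricter p in these libraries.

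**Figure D1:**
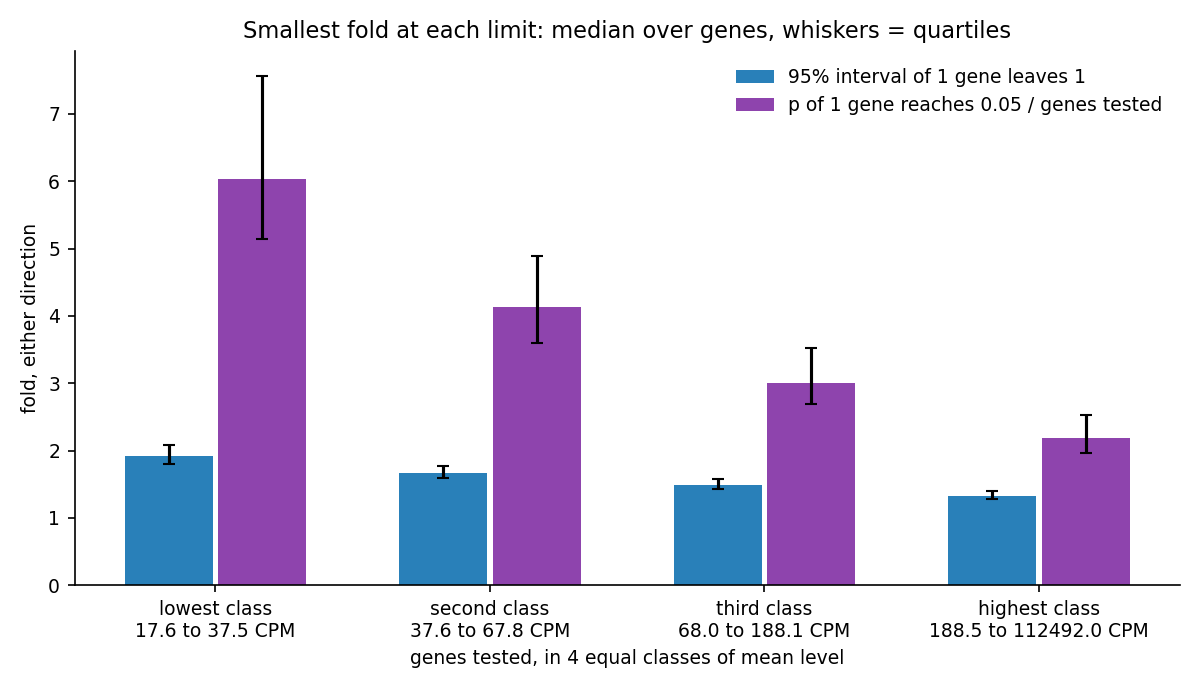
The smallest fold, in either direction, at which the 95% interval of a gene leaves 1 (blue) and at which its p reaches 0.05 divided by the number of genes tested (purple), for the 4 classes of mean expression. Bars are medians over genes and whiskers are quartiles; the medians lie at 1.91-fold and 6.03-fold in the lowest class and at 1.33-fold and 2.19-fold in the highest.

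The 8 genes with the smallest p and higher values under VC were Cebpb, Saa4, Saa1, Sqstm1, Pitpna, Fam20c, Vps37b and Igfbp2. None passed the adjusted threshold, so the following are values and not calls. Cebpb encodes C/EBPβ, the transcription factor named above, on chromosome 2 from 167688915 to 167690418 (GRCm38/mm10). It stood at 114, 141 and 190.0 CPM in w12_CD+VC and 269, 273 and 209.8 CPM in w12_WD+VC, against 60.5, 59.8 and 81.5 CPM in w12_CD and 126 and 111 CPM in w12_WD. Within each diet every VC library lay above every air library, while across diets the groups overlapped, because the w12_WD values reached into those of w12_CD+VC. The choice of Cebpb by its small p favours such separation, and its share among all genes was not counted. The log2 fold change was 1.10 ± 0.22 (SE; 95% interval 1.57-fold to 2.95-fold; edgeR quasi-likelihood, adjusted p 0.126). An exon of Tmem189 overlaps Cebpb on the other strand. The Tmem189 entry had 7 counts in all with VC and 4 with air.

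Saa1 and Saa4 are neighbours on chromosome 7 (46740497 to 46742980 and 46727998 to 46732603) and encode serum amyloid A proteins of plasma lipoproteins. Saa1 stood at 58.4, 445 and 278 CPM in w12_CD+VC and 101, 183 and 165 CPM in w12_WD+VC, against 18.9, 43.2 and 96.0 CPM in w12_CD and 78.2 and 15.9 CPM in w12_WD. In w12_WD 2 Saa1 lay under the level that 0 counts allow there (22.1 CPM), so that value rests on very few counts. The groups overlapped through 1 low w12_CD+VC library, and on the Western diet every VC value lay above both air values. Its log2 fold change was 1.85 ± 0.48 (SE; 1.79-fold to 7.29-fold; edgeR quasi-likelihood, adjusted p 0.610). Saa1 and Saa2 are near-identical copies, so how counts were divided between them is uncertain. Saa4 is the constitutive member of the family. It stood at 227, 757 and 501 CPM in w12_CD+VC and 865, 867 and 1119 CPM in w12_WD+VC, against 204, 349 and 198 CPM in w12_CD and 495 and 302 CPM in w12_WD. Again 1 w12_CD+VC library lay among the air values. The log2 fold change of Saa4 was 1.07 ± 0.27 (SE; 1.42-fold to 3.09-fold; edgeR quasi-likelihood, adjusted p 0.589).

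Sqstm1 encodes p62, an adaptor that carries ubiquitinated cargo into autophagosomes, on chromosome 11 from 50199366 to 50210827. It stood at 124, 89.0 and 81.4 CPM in w12_CD+VC and 122, 113 and 146 CPM in w12_WD+VC, against 56.7, 56.4 and 26.2 CPM in w12_CD and 78.2 and 23.9 CPM in w12_WD. The w12_WD 2 value lay only just above the level that 0 counts allow there (22.1 CPM). All 6 VC libraries lay above all 5 air libraries. Such separation upward was found for 4 genes (0.145%) and downward for 4 (0.145%). The log2 fold change of Sqstm1 was 1.11 ± 0.30 (SE; 1.40-fold to 3.32-fold), and Mrnip overlaps it on the other strand. The other genes separated upward were Hist1h2bc, Rpl28 and Slc5a10, and those separated downward were Kif20a, Narfl, Slc44a3 and Syt12, with adjusted p values of 0.812 to 0.831, against 0.610 for Sqstm1. These last names, other than Sqstm1 and Kif20a, were chosen after their values were seen.

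The remaining genes of the 8 took part in membrane traffic, secretion and growth factor binding. Pitpna, a phosphatidylinositol transfer protein, had a median of 144 CPM with VC (46.7 to 262) and 49.8 CPM with air (22.7 to 69.8), and a log2 fold change of 1.37 ± 0.37. Fam20c, a kinase of secreted proteins, had a median of 140.3 CPM with VC (68.9 to 312) and 75.9 CPM with air (63.7 to 87.0), and a log2 fold change of 1.02 ± 0.29. The ranges overlapped for both. Vps37b, a subunit of the endosomal sorting complex ESCRT-I, gave a log2 fold change of 1.17 ± 0.35, and Igfbp2, which binds insulin-like growth factors, gave 0.94 ± 0.30.

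The 8 genes with the smallest p and lower values under VC were Sycp3, Tom1, Tmtc1, Tom1l2, Hectd2, Kif20a, R3hdml and Plet1. Sycp3 encodes a component of the synaptonemal complex of meiotic chromosomes, on chromosome 10 from 88459569 to 88473236. It stood at 572, 482 and 468 CPM in w12_CD+VC and 309.9, 211 and 439 CPM in w12_WD+VC, against 1130.5, 1461 and 869.8 CPM in w12_CD and 541 and 533 CPM in w12_WD. Within each diet every VC library lay below every air library, and the groups overlapped because the w12_WD values lay below the highest w12_CD+VC value. As for Cebpb, the choice by small p favours this separation, and its share among all genes was not counted. The log2 fold change was -1.005 ± 0.20 (SE; 0.373-fold to 0.666-fold; edgeR quasi-likelihood, adjusted p 0.126). The Sycp3 entry overlaps exons of Chpt1, a phospholipid synthesis gene, on the other strand. The library kit, as it is named, does not separate the strands, and no strand setting of the counting is stated. Whether the Sycp3 entry holds reads of Sycp3, of Chpt1 or of both is therefore uncertain. The Chpt1 entry had 23 counts in all with VC and 18 with air. How reads were divided between these entries was not tested.

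Tom1 encodes an endosomal sorting adaptor, on chromosome 8 from 75033705 to 75070121. It stood at 16.3, 14.8 and 24.1 CPM in w12_CD+VC and 14.2, 15.6 and 19.1 CPM in w12_WD+VC, against 75.6, 66.4 and 96.0 CPM in w12_CD and 21.3 and 127 CPM in w12_WD. All VC values were low, and 1 of the 2 w12_WD values lay among them. The values of w12_CD+VC 2 and w12_WD+VC 3 lay under the level that 0 counts allow in those libraries (21.3 and 19.7 CPM). They rest on very few counts, and the fold is uncertain for that reason. The log2 fold change was -2.01 ± 0.42 (SE; 0.134-fold to 0.460-fold; edgeR quasi-likelihood, adjusted p 0.137). The adjusted p was 0.00929 without w12_WD 1 and 0.936 without w12_WD 2, the libraries with the low and the high value. A predicted transcript, Gm45822, overlaps Tom1 on the other strand.

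Tom1l2, a relative of Tom1, had a median of 454 CPM with VC (274 to 670.2) and 843 CPM with air (526.3 to 931), and a log2 fold change of -0.73 ± 0.21. Kif20a, a kinesin of cell division, stood at 257, 208 and 281 CPM in w12_CD+VC and 227, 195 and 209.8 CPM in w12_WD+VC, against 336, 345 and 463 CPM in w12_CD and 294 and 318 CPM in w12_WD. All VC values lay below all air values, with a log2 fold change of -0.57 ± 0.17. The Kif20a entry overlaps Cdc23 on the other strand. Tmtc1, an enzyme of the endoplasmic reticulum, gave a log2 fold change of -1.30 ± 0.36, Hectd2, a predicted ubiquitin ligase, -0.84 ± 0.25, R3hdml -1.04 ± 0.34 and Plet1 -0.99 ± 0.33. Among these 16 genes, 3 of the 8 with higher values and 6 of the 8 with lower values overlap an exon on the other strand, against 58.0% of all entries tested (1602).

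**Figure D2:**
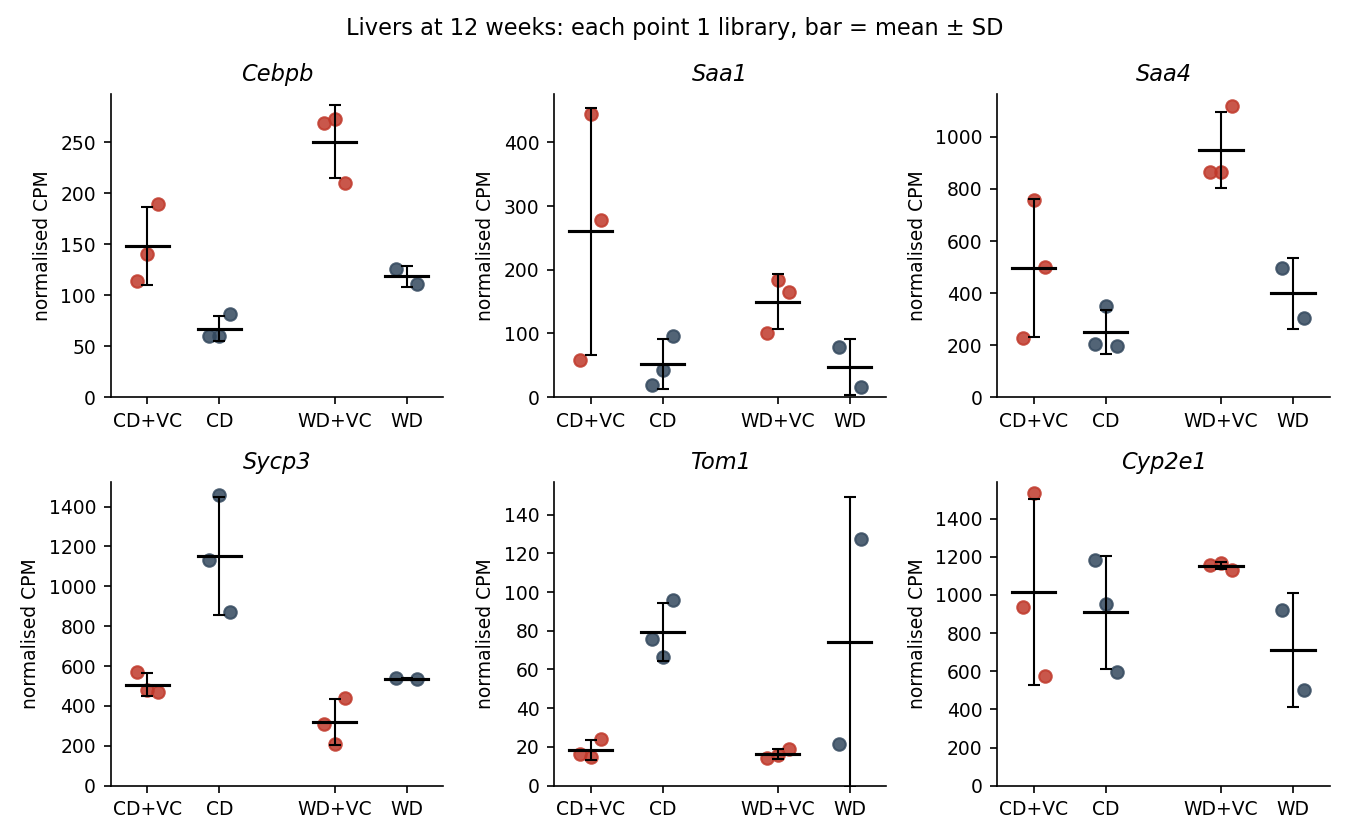
Normalised CPM of 6 genes in each of the 11 libraries, by diet and exposure (red, with VC; dark blue, air). Bars are group means and whiskers are SD; Cebpb lies at 114 to 273 CPM with VC and 59.8 to 126 CPM with air, and Tom1 at 14.2 to 24.1 CPM with VC and 21.3 to 127 CPM with air.

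Of 34 acute-phase genes 20 were tested and none passed the adjusted threshold. Without the expression filter 2 of 32 members passed with higher values under VC, Saa1 (edgeR adjusted p 7.24e-05) and Saa4 (0.0435). Over all 13787 entries with a count, 9 passed in that setting. The log2 fold change of Saa1 was 1.77 there and 1.85 with the filter. Its unadjusted edgeR p went from 0.00119 to 1.05e-08, so the p moved with the setting and the fold hardly did. Of the 20, 18 had a log2 fold change above 0, against 1392 of all 2761 genes (50.4%). Their median log2 fold change was 0.54, beside 0.003 over all genes tested. At an unadjusted p under 0.05 there were 9 members, all with higher values (45% of the list, against 2.75% of all genes in that direction). They were Saa1, Saa2, Saa4, Hp, Hpx, Fgb, Itih3, Itih4 and C3. Acute-phase genes are known to be regulated together, so the members are not independent observations.

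Haptoglobin (Hp), which binds free haemoglobin, stood at 434, 1202 and 1029 CPM in w12_CD+VC and 1132, 1242 and 1170.0 CPM in w12_WD+VC, against 454, 730.4 and 634 CPM in w12_CD and 669 and 255 CPM in w12_WD. Of the VC libraries 5 lay above every air library and w12_CD+VC 1 lay among the air values. The log2 fold change of Hp was 0.87 ± 0.28 (SE; 1.22-fold to 2.74-fold). Fgb, the fibrinogen beta chain, stood at 1476, 2789 and 1985 CPM in w12_CD+VC and 798, 972 and 1519.8 CPM in w12_WD+VC, against 1717, 1391 and 1129 CPM in w12_CD and 1124 and 398 CPM in w12_WD. Its groups overlapped widely, and the log2 fold change of 0.52 ± 0.25 (SE; 1.004-fold to 2.06-fold) only just left 0. Complement C3 stood at 1308, 2210.4 and 2205 CPM in w12_CD+VC and 2143, 2503 and 2518 CPM in w12_WD+VC, against 1803, 1826 and 1434 CPM in w12_CD and 1633 and 685 CPM in w12_WD. Again w12_CD+VC 1 was the lone low VC library, and the log2 fold change was 0.54 ± 0.23 (SE). Hpx (haem-binding hemopexin), Itih3 and Itih4 (inter-alpha-trypsin inhibitor heavy chains) gave 0.66 ± 0.28, 0.71 ± 0.31 and 0.67 ± 0.27, and Fga, the fibrinogen alpha chain, gave 0.53 ± 0.30. Serpina3m and Cp lay below 0, at -0.19 and -0.08.

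The libraries did not contribute evenly. Among the 9 genes, w12_CD+VC 2 had the highest value of 6 and w12_WD 2 the lowest value of 7, and these were the libraries with the fewest counts (140926 and 135577). Without w12_CD+VC 2, 3 of the 20 members had an unadjusted p under 0.05 and the median was 0.42; without w12_WD 2 these were 3 and 0.40. The count was 4 without w12_CD 3 and 4 without w12_WD+VC 3. The median stayed between 0.40 and 0.81 over all 22 alternative settings. Within the diets, the median was 0.54 on the control diet (17 of 20 above 0) and 0.55 on the Western diet (16 of 20), which share no library. These rested on single libraries. The control diet median was 0.21 without w12_CD+VC 2 (14 of 20 above 0) and 0.81 without w12_CD+VC 1. The Western diet median was 0.21 without w12_WD 2 (11 of 20), 0.07 without w12_WD+VC 3 (10 of 20), 1.55 without w12_WD 1 and 0.84 without w12_WD+VC 1. In the libraries taken 9 months after exposure, the median VC effect of these genes was 1.02 on the control diet (18 of 20 above 0) and -0.27 on the Western diet (8 of 20), beside -0.26 and 0.04 over all genes tested. The later medians of other lists also differed by diet, at 1.38 and -0.62 for fatty acid oxidation and 1.77 and -0.66 for glutathione genes. The summed level of the whole list was 7010 to 15944 CPM with VC (median 9562) and 3172 to 10097 CPM with air (median 8324), so the groups overlapped. The part that depth plays in these differences was not tested.

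**Figure D3:**
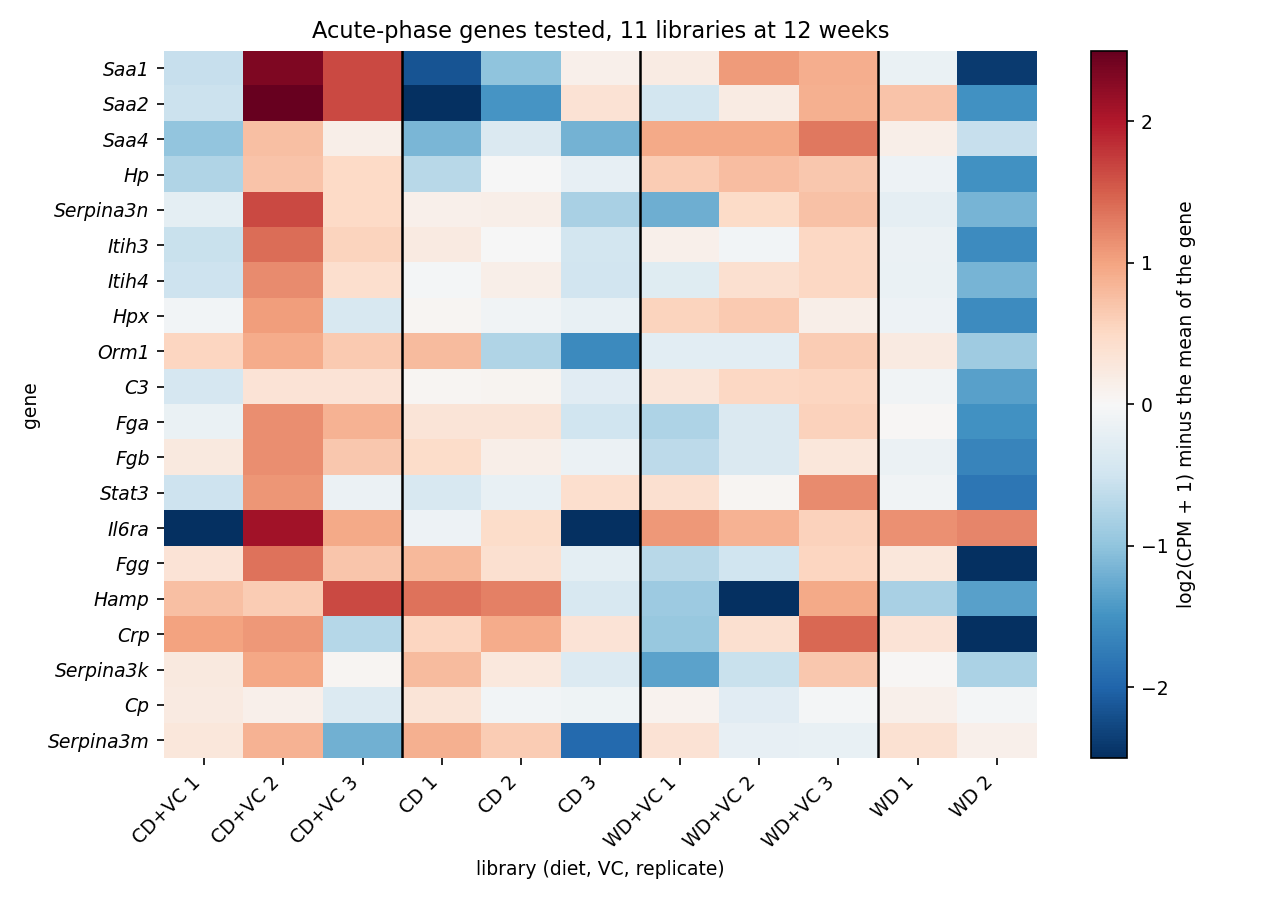
The 20 acute-phase genes tested (rows, from the highest to the lowest pooled log2 fold change) in the 11 libraries (columns, by diet and exposure). Colour is log2(CPM + 1) minus the mean of the gene; w12_CD+VC 2 is the highest and w12_WD 2 the lowest library for many rows, and w12_CD+VC 1 lies below the mean in most of the upper rows.

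The start regions of 4 of the genes that held a C/EBP-type motif there are shown, because C/EBP factors are known to act at acute-phase promoters and Cebpb had the smallest p among all genes tested. Each is the 250 bases before the start, from RefSeq (GRCm38.p6), read 5′ to 3′ on the strand of the gene. Capitals mark the letters of the motif, TTGCNNAA, or TTNNGCAA where it lies on the other strand. Saa1 is at chr7:46742981-46743230, Saa4 at chr7:46732604-46732853, Fgb at chr3:83049864-83050113 and C3 at chr17:57228137-57228386, all on the minus strand.
Saa1: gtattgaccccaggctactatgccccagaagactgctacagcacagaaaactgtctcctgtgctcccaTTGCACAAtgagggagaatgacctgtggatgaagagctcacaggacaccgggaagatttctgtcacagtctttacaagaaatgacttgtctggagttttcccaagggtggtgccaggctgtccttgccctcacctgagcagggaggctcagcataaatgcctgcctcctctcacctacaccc
Saa4: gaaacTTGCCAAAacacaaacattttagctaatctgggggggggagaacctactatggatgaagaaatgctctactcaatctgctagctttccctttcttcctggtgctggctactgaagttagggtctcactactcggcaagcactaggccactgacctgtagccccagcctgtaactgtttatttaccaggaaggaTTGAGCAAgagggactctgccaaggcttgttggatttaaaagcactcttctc
Fgb: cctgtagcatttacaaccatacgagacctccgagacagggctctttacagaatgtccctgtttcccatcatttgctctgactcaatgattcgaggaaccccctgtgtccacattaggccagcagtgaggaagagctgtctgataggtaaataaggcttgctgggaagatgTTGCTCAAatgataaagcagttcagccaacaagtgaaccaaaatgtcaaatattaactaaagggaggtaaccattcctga
C3: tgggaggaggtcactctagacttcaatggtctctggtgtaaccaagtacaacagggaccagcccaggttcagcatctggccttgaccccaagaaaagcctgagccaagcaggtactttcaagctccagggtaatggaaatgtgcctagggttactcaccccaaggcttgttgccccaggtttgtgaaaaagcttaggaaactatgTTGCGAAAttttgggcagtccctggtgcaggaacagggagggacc
The motif began 182 bases before the start in Saa1, 245 and 52 bases before it in Saa4, 80 in Fgb and 45 in C3. Of the 20 acute-phase genes tested, 16 had a sequence in the table. These gave 17 promoter sequences, of which 8 held the motif in this window, and 3142 of all 32851 promoter sequences (9.56%) held it. The 8 members with the motif were Saa1, Saa2, Saa4, Hpx, Fgb, C3, Fga and Cp. Of these, Fga was not among the 9 genes above, and the log2 fold change of Cp lay below 0. Itih3 and Itih4, which are among the 9, had no match. Whether the motif goes with the VC effect was not tested. A match describes letters and does not show that a factor was bound, and Cebpb itself had no match.

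Of 24 genes of VC oxidation and aldehyde clearance 20 were tested, and for 14 of the 20 the 95% interval lay within 2-fold in either direction. The interval that reached highest was that of Akr1a1, an aldehyde reductase, at 0.636-fold to 2.77-fold. Cyp2e1, which carries out the first oxidation (chromosome 7, 140763739 to 140774987), stood at 939, 1535 and 573 CPM in w12_CD+VC and 1159, 1167 and 1132 CPM in w12_WD+VC, against 1183, 949 and 593 CPM in w12_CD and 922 and 501 CPM in w12_WD. The groups overlapped, and the log2 fold change was 0.38 ± 0.25 (SE; 0.903-fold to 1.87-fold; edgeR quasi-likelihood, adjusted p 0.872). A doubling of Cyp2e1 thus lay outside the interval. Aldh2 had a median of 559 CPM with VC (368 to 693) and 455 CPM with air (342 to 555), and an interval of 0.892-fold to 1.54-fold. The 20 genes had a median log2 fold change of 0.04 with 12 above 0, and 0 had an unadjusted p under 0.05. The most counted were Cyb5r3, a cytochrome b5 reductase (log2 fold change -0.18 ± 0.27), and Adh7, an alcohol dehydrogenase (-0.20 ± 0.17). The entries of Aldh2, Cyb5r3 and Adh7 overlap an exon on the other strand and may hold reads of both genes.

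Of 29 glutathione genes 7 were tested, with a median of 0.04 and 0 at an unadjusted p under 0.05. Gstz1 and Mgst1, both transferases, gave 0.22 ± 0.19 and 0.04 ± 0.33. Of 44 DNA adduct repair genes 9 were tested, with a median of -0.02. Mpg, the glycosylase that removes ethenoadenine, gave -0.04 ± 0.34 (0.591-fold to 1.60-fold), Lig3 -0.35 ± 0.22 and Ddb2 -0.07 ± 0.15. Of the 9 entries, 8 overlap an exon on the other strand, among them Mpg (Nprl3), Lig3 (Rffl) and Ddb2 (Acp2), so their values may hold reads of both genes. Ung, a uracil glycosylase, was the member with an unadjusted p under 0.05, at 21.0, 104 and 136 CPM in w12_CD+VC and 42.5, 82.0 and 38.2 CPM in w12_WD+VC, against 30.2, 13.3 and 34.9 CPM in w12_CD and 26.1 and 55.7 CPM in w12_WD. Its groups overlapped, and the log2 fold change was 1.21 ± 0.47.

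DNA damage signalling could hardly be seen with so few counts. Of 31 p53 and damage genes, 1 was tested. This was Gadd45a, a growth arrest gene, with a median of 24.9 CPM with VC (4.67 to 46.9) and 26.1 CPM with air (19.9 to 52.9) and a log2 fold change of -0.46 ± 0.50. Its values in w12_CD+VC 1 and w12_CD+VC 2 lay under the levels that 0 counts allow there (7.12 and 21.3 CPM). Cdkn1a, which encodes the cell cycle inhibitor p21, had 4 counts of 1940050 with VC and 4 of 1530359 with air. Tdg, a glycosylase for ethenocytosine, had 0 counts in both, which allows up to 1.55 CPM with VC and 1.96 CPM with air.

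Of the NRF2 and antioxidant genes 11 were tested, with a median of 0.12. Catalase (Cat) gave 0.02 ± 0.22 and the ferritin heavy chain (Fth1) 0.11 ± 0.25. The 13 genes of the unfolded protein response had a median of 0.15, with the chaperones Hsp90b1 at 0.16 ± 0.21 and Calr at 0.35 ± 0.18. The 19 xenobiotic P450 and related genes had a median of -0.17, with 5 above 0; Cyp2a5 gave 0.02 ± 0.32 and Cyp2c29 -0.44 ± 0.35. The 20 respiratory chain genes had a median of 0.10, and their most counted members were Atp5f1 (0.15 ± 0.17) and Atp5j (0.46 ± 0.25). None of these lists held a gene past the adjusted threshold.

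Of the genes that write, read or erase m6A on RNA, 8 of 27 were tested, with a median of 0.10. Mettl3, the catalytic subunit of the m6A methyltransferase, had a median of 162 CPM with VC (105 to 245) and 159 CPM with air (143 to 204), and its interval was 0.737-fold to 1.40-fold. Mettl5, which methylates ribosomal RNA, gave -0.28 ± 0.18. Tox4 overlaps Mettl3 and Ssb overlaps Mettl5 on the other strand. The demethylase gene Fto had 7 counts with VC and 7 with air and was not tested. The 18 genes of the cytosolic ribosome had a median of 0.40, with 15 above 0 and 2 at an unadjusted p under 0.05. This median depended on the filter and on single libraries. It was 0.11 without the filter (20 of 31 above 0), 0.09 in the fit of 23 libraries, and 0.22 without w12_WD 1.

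Fatty acid oxidation genes had a pooled median of 0.09 over the 25 tested, with 21 of 25 above 0. It was -0.02 without w12_WD 2 (13 of 29 above 0), 0.36 without w12_CD+VC 3 and 0.24 as the mean of the effects within each diet. On the control diet their median VC effect was -0.22, with 6 of 25 above 0, and on the Western diet 0.92, with 23 of 25 above 0. Over all genes tested these medians were -0.02 and 0.03. Single libraries moved them: the control diet median was 0.004 without w12_CD 1 and 0.02 without w12_CD+VC 3, and the Western diet median was 0.45 without w12_WD 2 and 1.55 without w12_WD 1. The difference between the diets was not tested for the list. With the expression filter no member passed the test of the diet by VC interaction, and without it 1 of 44 did. The calls among all 13787 entries in that setting are given in the last section.

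**Figure D4:**
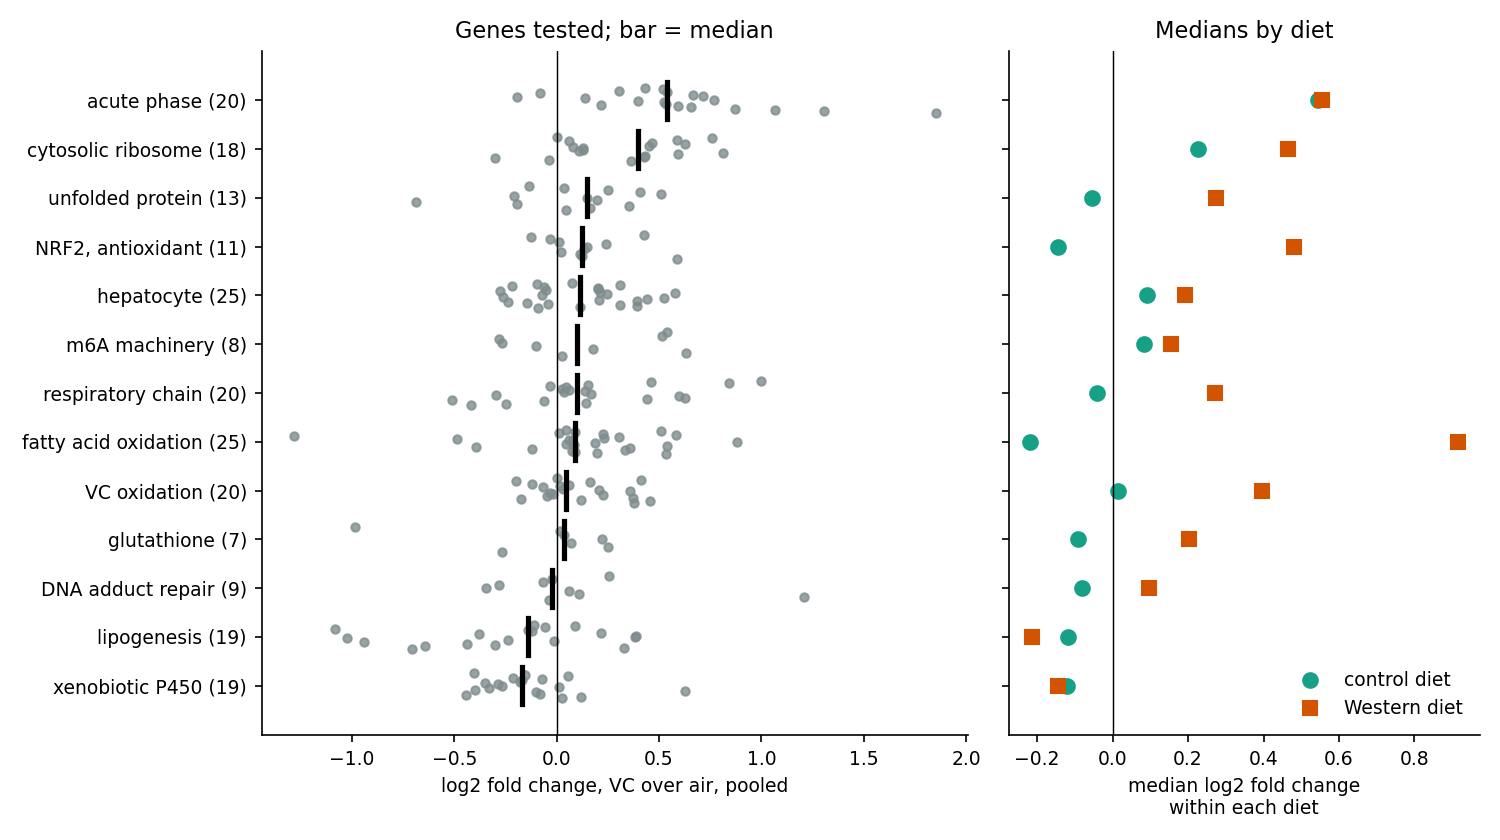
Left, log2 fold change (VC over air, pooled over diets) of each tested member of 13 gene lists, with the number tested in brackets and the median as a bar. Right, the median of the same members within the control diet (circles) and within the Western diet (squares); acute-phase medians lie at 0.54 and 0.55, and those of fatty acid oxidation at -0.22 and 0.92.

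The 19 lipogenesis genes had a median of -0.14, with 5 above 0. Its sign rested on single libraries, at 0.15 without w12_CD 1 (12 of 18 above 0), 0.02 without w12_CD+VC 3 and -0.41 without w12_CD 3. Scd1, a fatty acid desaturase, stood at 3080.0, 586 and 205 CPM in w12_CD+VC and 197, 125 and 369 CPM in w12_WD+VC, against 3751, 325 and 201 CPM in w12_CD and 1432 and 342 CPM in w12_WD. On the Western diet, w12_WD 2 lay within the range of the VC values and w12_WD 1 far above it. The first libraries of w12_CD+VC, w12_CD and w12_WD were all high, so the spread was wide in these groups. The pooled log2 fold change was -0.94 ± 0.72. Without the filter Scd1 passed with lower values under VC (edgeR adjusted p 0.0416) and in the interaction (0.00961). Its pooled log2 fold change was then -0.96, close to that with the filter. Fads1, another desaturase, gave -1.02 ± 0.37 with an unadjusted p of 0.0125. Fabp1, a fatty acid carrier, gave -0.11 ± 0.26.

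Within each diet the test again called no gene. On the control diet 0 of 2761 genes passed (0.0%; lowest edgeR adjusted p 0.600) and 114 (4.13%) had an unadjusted p under 0.05. On the Western diet, with 3 libraries against 2, 0 passed (0.0%; lowest adjusted p 0.0556) and 183 (6.63%) had an unadjusted p under 0.05. The diet by VC interaction gave 0 calls (0.0%; lowest adjusted p 0.145) with 139 genes (5.03%) at an unadjusted p under 0.05. The effects on the 2 diets had the same sign for 1465 genes (53.1%), and for all 16 genes of smallest pooled p, whose choice favours a shared sign. Across genes the effects correlated with r = 0.01 (Spearman rho 0.06, n = 2761 genes, which are not independent).

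The genes with the lowest adjusted p within the Western diet and in the interaction were named after their values were seen. Hcn3, a cation channel gene, overlaps Pklr, the liver pyruvate kinase gene, on the other strand. It stood at 472, 1335 and 598 CPM in w12_WD+VC against 4033 and 5898 CPM in w12_WD, and at 2905, 3916 and 950.2 CPM in w12_CD+VC against 3168, 2509.8 and 2734 CPM in w12_CD. The Western diet values were far apart and those on the control diet overlapped. The Pklr entry stood far lower, at 12.2, 11.7 and 19.1 CPM in w12_WD+VC against 40.3 and 23.9 CPM in w12_WD. On the control diet it stood at 67.7, 29.7 and 12.1 CPM in w12_CD+VC against 56.7, 29.9 and 2.91 CPM in w12_CD. The Hcn3 entry may hold reads of both genes, and how reads were divided between them was not tested. Txnip, a regulator of glucose uptake and thioredoxin, stood at 1773, 679 and 318 CPM in w12_WD+VC against 49.8 and 55.7 CPM in w12_WD, and at 18.7, 14.8 and 66.4 CPM in w12_CD+VC against 15.1, 375 and 163 CPM in w12_CD. Its effect was 4.17 (log2) on the Western diet and -2.37 on the control diet, and Gm15441 overlaps it on the other strand.

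After 9 further months without exposure, the same diets and exposures were compared in 12 other libraries, 3 per group. The difference between the VC effect at the end of exposure and the later one gave 0 calls of 4764 genes (0.0%; lowest edgeR adjusted p 0.130), and 237 (4.97%) had an unadjusted p under 0.05. Of the 16 genes of smallest p, 13 had the same sign in the later effect averaged over the diets (81.2%), against 1624 of all 2761 genes (58.8%). On both diets separately the sign was the same for 5 of the 16 (Saa1, Saa4, Pitpna, Sycp3 and Kif20a), against 561 of all genes (20.3%). The later log2 effects on the control and the Western diet were 0.56 and 0.10 for Saa4, -0.46 and -0.32 for Sycp3, -0.26 and 0.40 for Cebpb, and -0.73 and 0.64 for Tom1. Across the 2761 genes the effects correlated with r = 0.17 (Spearman rho 0.20), as a description over genes that are not independent.

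**Figure D5:**
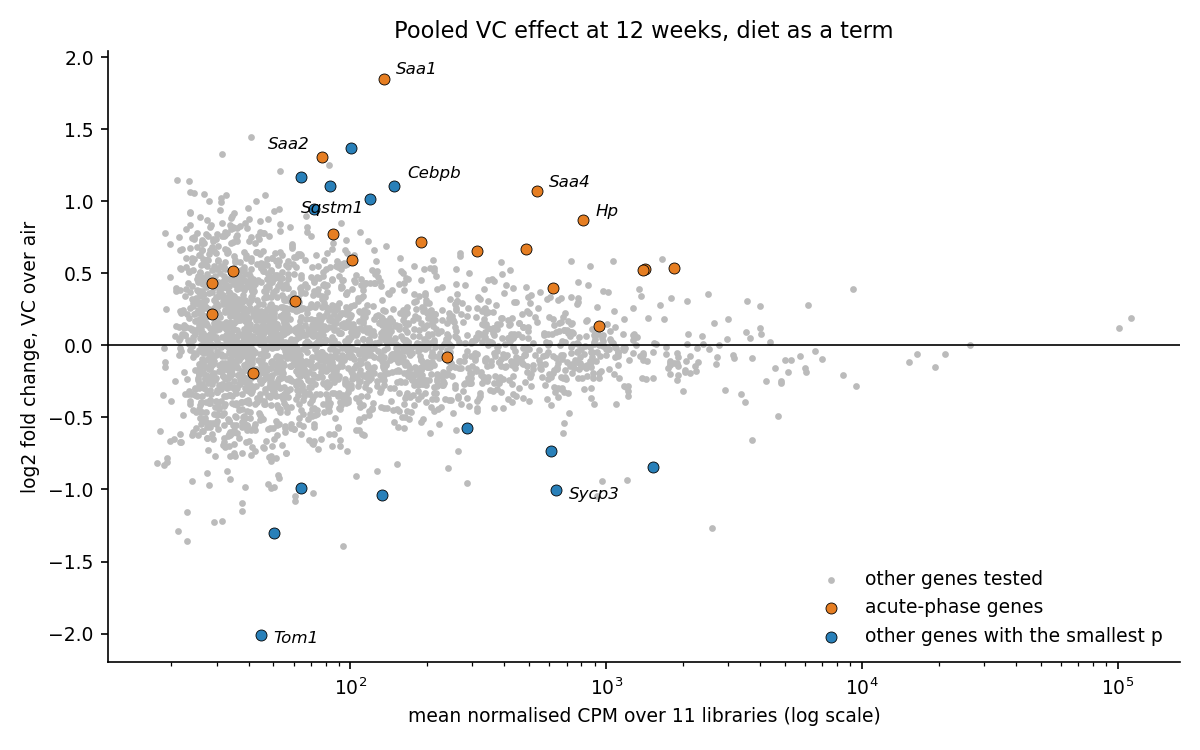
Pooled log2 fold change (VC over air, diet as a term) against mean CPM over the 11 libraries (log scale) for the 2761 genes tested. Acute-phase genes are orange and the other genes with the smallest p blue; Saa1 lies at 1.85, Cebpb at 1.10 and Tom1 at -2.01.

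Markers of other liver cells were scarce. In bulk RNA, fewer cells of a type and less RNA per cell cannot be told apart. Of 20 Kupffer cell and macrophage markers 3 were tested, with a median of 0.12, and the summed list stood at 112 to 259 CPM with VC and 75.2 to 209 CPM with air. Of 15 endothelial markers 3 were tested (Stab1, Stab2 and Eng), with log2 fold changes of 0.14 to 0.66. The summed list stood at 670.3 to 1043 CPM with VC and 519 to 1011 CPM with air, and Eng alone at 528 to 869 CPM and 476 to 857 CPM. All 3 entries overlap an exon on the other strand and may hold reads of both genes. Neutrophil markers were at 0 for 6 of 9 entries in the table and summed to at most 7.10 CPM with VC and 3.87 CPM with air. The hepatocyte list summed to 15594 to 31069 CPM with VC and 13409 to 29497 CPM with air, with a median log2 fold change of 0.11. The part of cell composition in the differences above was not tested.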

How the data were processed

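Total RNA of liver was depleted of ribosomal RNA, prepared with a TruSeq RNA v2 kit and read on a HiSeq2500 instrument, per the labels' protocols. Trimmomatic 0.38, HISAT2 2.1.0, HTSeq 0.11.2 and mm10 are named in the submitters' processing notes. No annotation or strand setting is given in the sources used here. The authors deposited 1 table of raw counts for 24421 gene symbols. The per-sample log2 values deposited by the authors equalled log2(count / size factor + 1) in all 24 files (tolerance 1e-06) and were not tested.

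Counts of the 11 libraries were filtered (filterByExpr), scaled (TMM) and fitted with edgeR 4.0.16 in R 4.3.3 as VC plus diet, with Benjamini-Hochberg adjustment at 0.05; the common biological coefficient of variation was 0.285. Within-diet and interaction contrasts used the 4 groups, and the comparison with 12 months used 23 libraries. CPM are TMM-normalised and not per length. SE is the coefficient over the square root of F. Replicates differed by more than sampling noise (chi-square per degree of freedom 2.41 to 9.38). The test was also run on simulated counts with known fold changes, drawn with the common dispersion for every gene. That run did not cover spread that differs between genes, and no value here rests on it. Symbols were placed on GENCODE M21, 23334 by symbol and 649 by synonym, and exon overlaps found with bedtools 2.31.1.

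Genes named were the 8 per direction with the smallest p and a mean of at least 10 CPM, without predicted symbols, the 2 most counted members of each of 13 lists, and Cyp2e1, Aldh2, Mpg, Cdkn1a, Mettl3 and Fto. Others are said to be chosen later or have an unadjusted p under 0.05 in a list. Some genes that this rule names are not reported here. The members and lists were chosen with earlier results of these data known. Alternatives were RLE scaling, no or a stricter filter (10 counts in each library), DESeq2 1.42.0, limma-voom 3.58.1, the replicate number as a block, other fits and leaving out each library.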

Additional observations from a re-analysis of the deposited data

Results flagged for a closer look

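Values were examined in 96 groups of 5 or 6 libraries for a single library far from the others, of which chance alone would mark about 1 in 20 (4.8), and 7 stood apart. Tmtc1 was 66.8 CPM in w12_CD+VC 2, and 19.1 to 27.3 CPM in the other VC libraries. Cyb5r3 was 3689 CPM in w12_CD+VC 1, and 1622 to 1970 CPM in the other VC libraries. Fth1 was 90.5 CPM in w12_CD+VC 3, and 171 to 243 CPM in the others with VC. C3 was 1308 CPM in w12_CD+VC 1, against 2143 to 2518 CPM in the others with VC, and 685 CPM in w12_WD 2, against 1434 to 1826 CPM in the others with air. Mpg was 15.9 CPM in w12_WD 2, and 42.7 to 49.8 CPM in the other air libraries. Gadd45a was 52.9 CPM in w12_CD 1, and 19.9 to 26.2 CPM in the others with air.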

How the results depend on the processing

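The pooled VC effect gave 0 calls in 16 of 22 alternatives, and 9 without the expression filter (Saa1 and Saa4 with higher values; Hcn3, Tom1, Acss2os, Sycp3, Ces3b, Scd1 and Hectd2 with lower values), 3 with DESeq2, 1 with limma-voom, 1 with at least 10 counts in each library, and 0 to 1 when a library was left out. Cebpb, Sycp3 and Tom1 had an adjusted p under 0.05 in 2 of 22, 4 of 22 and 3 of 21 settings. The 16 genes of smallest p kept their sign in all 334 alternative values. On the control diet there were 4 calls without the filter and 0 to 1 with a library left out. On the Western diet there were 12 without the filter, 2 with DESeq2, 2 with limma-voom and 0 to 3 with a library left out. The interaction gave 12 without the filter, 3 with DESeq2 and 0 to 5 with a library left out, and the comparison of times gave 1, 1 and 0 to 1.

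Same-numbered libraries were not shown to be paired, with correlations of their deviations of -0.17 to 0.30. With the replicate number as a block the pooled effect gave 0 calls, the Western diet effect 1 (Hcn3), and 4 acute-phase genes had an unadjusted p under 0.05; Fabp1 turned to 0.0298 and Alb to 0.012.

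Other log2 values near 0 changed sign, and the cause was not tested. Without the filter Cat was -0.0091 and Mettl3 -0.00048. With limma-voom Cat was -0.027, Cyp2a5 -0.16 and Alb 0.00038. With DESeq2 Cyp2a5 was -0.0040 and Txnip -0.33. Among entries without an overlap Mgst1 was -0.025, Cat -0.0699 and Cyp2a5 -0.0697. In the fit of 23 libraries Cyp2a5 was -0.0037 and Mettl3 -0.022, and without a diet term Mettl3 was -0.0094. With 1 library left out, the lowest and highest values were -0.27 and 0.15 for Alb, -0.086 and 0.20 for Cat, -0.41 and 0.039 for Cyb5r3, -0.37 and 0.19 for Cyp2a5, -0.62 and 0.048 for Cyp2c29, -0.11 and 0.022 for Ddb2, -0.25 and 0.16 for Fabp1, and -0.079 and 0.298 for Fth1. They were -0.039 and 0.27 for Hsp90b1, -0.067 and 0.12 for Mettl3, -0.095 and 0.32 for Mgst1, -0.22 and 0.12 for Mpg, and -0.87 and 1.34 for Txnip. The VC minus air difference then ran from -49367 to 93212 in total counts and from -885 to 1006.5 in genes detected. It ran from -2.30 to 0.041 percentage points in the share of counts in overlapping entries.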
